A study of Homo sapiens with 9 samples.

Results

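Translation initiation factors place the initiator tRNA and the ribosomal subunits at the start codon of an mRNA. The 44 factors described here were taken by name: every transcript whose gene symbol begins with EIF and a digit and that is listed for both compounds, without EIF2AK3, EIF5A and EIF5AL1. They are 44 of 9221 transcripts listed for at least one compound, and the rule used no ratio or level beyond the authors' count minimum for listing a transcript. The group is a naming family, and a few of its members act outside initiation.

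Huh-7 is a line of liver cancer cells of human origin. It was exposed for 1 hr to PF8503 (PF-06378503) at 1.5 μM, to PF846 at 1.5 μM or, as vehicle, to DMSO at 0.5%. Each condition had 3 libraries, 9 in all, described in the labels as biological replicates. The labels and the study's methods number the replicates differently, so which libraries entered the means is not certain. PF8503 and PF846 are related small molecules that bind the ribosome and stall the synthesis of a limited set of proteins. Ribosome profiling counts the mRNA fragments that ribosomes shield from nuclease, so its signal reflects how many ribosomes sat on a coding sequence. mRNA levels were not measured in these libraries, and fewer mRNAs and fewer ribosomes on each mRNA cannot be told apart. The counts were normalized between libraries, so a change shared by all transcripts, such as fewer cells, would not show in them.

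The values are the authors' means per condition, in normalized counts, so no value of a single library, no replicate error and no depth per library could be given from them. A difference below is a ratio of means, and none was tested. Each condition was also sequenced on lanes of its own, so lane and treatment cannot be told apart. All 10 hepatocyte markers searched for, albumin and alpha-fetoprotein among them, were listed for both compounds. Their vehicle means ran from 1249 to 212970 in the PF8503 comparison. Of 9 markers of other cell types, 3 were listed for either compound. CD68 had a vehicle mean of 889 and PECAM1 of 170 in the PF8503 comparison. GFAP was listed for PF846 alone, with 40.5 in that comparison.

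Initiation begins when eIF2, bound to GTP, carries the initiator methionyl-tRNA to the small ribosomal subunit together with eIF1, eIF1A, eIF3 and eIF5. The eIF4F proteins (the cap-binding eIF4E, the scaffold eIF4G and the helicase eIF4A) bring this complex to the mRNA, and it scans until the start codon is recognised. eIF5 then stimulates GTP hydrolysis on eIF2, eIF5B joins the large subunit, and eIF2B recharges eIF2 with GTP, a step that kinases of the eIF2 alpha subunit block under stress.

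The bases around the start codons of some of the factors named below are given first. Whether they bear on the footprint ratios was not tested. They are from GENCODE on GRCh38, each with 9 bases before and 18 after the start codon, which is in capitals. EIF5 is read from chr14:103335861-103335863 on the plus strand, in exon 3 of its transcript. EIF2S3 starts at chrX:24054969-24054971 on the plus strand and EIF1AX at chrX:20141638-20141640 on the minus strand, both in exon 1. EIF4H starts at chr7:74174384-74174386, EIF1 at chr17:41689039-41689041 and EIF1B at chr3:40309942-40309944, all in exon 1 on the plus strand. EIF4G2 starts at chr11:10807293-10807295 on the minus strand, in exon 2.
EIF5: taagccaaaATGtctgtcaatgtcaaccgc
EIF2S3: tttggcaacATGgcgggcggagaagctgga
EIF1AX: gccaccgccATGcccaagaataaaggtaaa
EIF4H: agacggcaaATGgcggacttcgacacctac
EIF1: tcgtatcgtATGtccgctatccagaacctc
EIF1B: tagtatcgcATGtccactatccagaacctc
EIF4G2: gccgccaaaGTGgagagtgcgattgcagaa

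EIF4G2, a relative of eIF4G that lacks the eIF4E-binding part, was the 1 factor of 44 annotated with a start codon other than ATG, against 36 of 19093 canonical coding transcripts (0.189%). A purine at the third base before the start codon, the strongest feature of a favourable context, was present in 39 of 44 factors (88.6%) and in 86.1% of all canonical transcripts. EIF1 and EIF1B, which guard the choice of the start codon, and EIF4H were among the 5 factors without it. A G directly after the start codon was present in 22 factors (50%) and in 51.4% of all canonical transcripts. The factors stood close to all transcripts in both features.

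In vehicle-treated cells most factors had more footprint signal for their length than the median transcript. Levels were set per 100 counted codons, that is, the vehicle mean divided by the coding length without the codons that the authors left out at both ends. The median was 597 normalized counts per 100 codons over the 44 factors and 86.6 over 9113 transcripts with a coding length. Of the factors, 39 lay above the median of all transcripts and 20 in the top 10%. Together they held 1.07% of the vehicle signal, 1.06% of the signal with PF8503 and 1.07% with PF846.

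EIF1 had the highest signal per length of the factors, at 4756 normalized counts per 100 codons. Its close relative EIF1B, of the same length of 113 residues, had 959, which made EIF1 4.96 times higher. EIF1AX, the X-linked eIF1A, had 1250, and EIF5 had 570. EIF5B, the subunit-joining GTPase, had 230, and EIF1AD, named for an eIF1A-like domain, had 164, the lowest of this group.

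The eIF2 subunits differed from one another, although the complex holds one copy of each. EIF2S2 (beta) had 1465 normalized counts per 100 codons, EIF2S1 (alpha) 706 and EIF2S3 (gamma) 377. The authors kept reads with a single position. In EIF2S3, 35.8% of 28-base windows were unique among canonical coding transcripts, and 64.2% were shared with its retrogene EIF2S3B. Whether reads were lost to that copy was not tested. Per codon of unique sequence EIF2S3 reached 1054, and the ratio of the highest to the lowest subunit went from 3.89 to 2.07. EIF2A and EIF2D, which can deliver initiator tRNA without eIF2, were lower, at 222 and 57.4.

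EIF2B2 to EIF2B5 were close together. EIF2B3 (gamma) had 167 normalized counts per 100 codons, EIF2B2 (beta) 150, EIF2B4 (delta) 145 and EIF2B5 (epsilon, which holds the catalytic part) 133, a range of 1.26-fold. EIF2B1, the alpha subunit, whose dimer holds the complex together, stood apart at 502, 3.78 times EIF2B5. Of the eIF2 alpha kinases, EIF2AK1 (HRI, sensing heme) had 262, EIF2AK2 (PKR, sensing double-stranded RNA) 78.7 and EIF2AK4 (GCN2, sensing uncharged tRNA) 19.9, the lowest of all 44 factors.

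The 11 eIF3 subunits listed spanned 3.42-fold. EIF3I, a WD-repeat subunit, was highest at 1606 normalized counts per 100 codons, and EIF3F, of the structural core, lowest at 470. The other 9 lay between, from EIF3A, the largest subunit, at 542 to EIF3K at 1158. In a grouping chosen after the values were seen, EIF3B, EIF3G and EIF3I ranged from 974 to 1606. The 6 listed members of the octameric core (EIF3A, EIF3F, EIF3H, EIF3K, EIF3L and EIF3M) ranged from 470 to 1158. EIF3D (909) and EIF3J (624) belonged to neither set and lay within the range of the core. EIF3C, EIF3CL and EIF3E were not analysed here, and 99.5% of the 28-base windows of EIF3C were shared with EIF3CL.

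Among the eIF4 proteins, EIF4H (1366 normalized counts per 100 codons) and EIF4B (1074), both of which stimulate the helicase eIF4A, had the highest values. EIF4A3, part of the exon junction complex, had 955 and EIF4A2 678. EIF4A1 was not analysed here. The scaffold EIF4G1 had 651, EIF4G2 568 and EIF4G3 51.7, so that EIF4G1 stood 12.6 times above EIF4G3. The cap-binding EIF4E had 700 and EIF4E2, a cap-binding relative that represses translation, 274. The eIF4E-binding repressors EIF4EBP1 and EIF4EBP2 had 806 and 467, and EIF4ENIF1, which carries eIF4E into the nucleus, 35.6. EIF6, which keeps the large subunit from joining too early, had 1379, and EIF5A2, a paralog of the elongation factor eIF5A, 118.

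**Figure D1:**
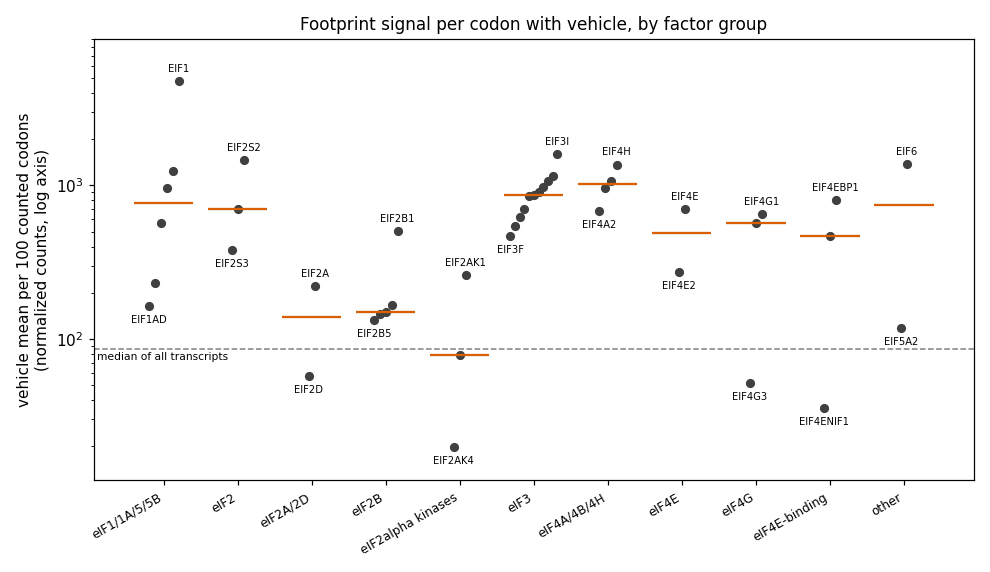
Footprint signal per 100 counted codons with vehicle (normalized counts, log axis) for the 44 factors, by group. Each point is the authors' mean for 1 factor, orange lines are group medians, the dashed line is the median of all transcripts (86.6), and the highest and lowest factor of each group are named. EIF1 (4756) and EIF2AK4 (19.9) are the extremes, and 39 factors lie above the dashed line.

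Before the compounds were compared, the counted region was checked for each factor. Where vehicle and compound reads diverged strongly along a transcript, the authors counted only codons beyond the position of the largest divergence (DMax), and the same vehicle libraries enter both comparisons. The vehicle mean in the PF8503 comparison was 1.09 times that in the PF846 comparison for nearly all transcripts, and a transcript off this ratio was counted over different codons. None of the 44 factors was off it by more than 0.002 on the log2 scale, against 1.53% of the 8775 transcripts listed for both. The largest departure of a factor was 0.00012. A region shortened in the same way for both compounds would not show in this check.

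With PF8503, the factors as a group stayed close to vehicle, and EIF5 was the one factor beyond 1.2-fold. It was lower, and 3.83% of all 9157 transcripts were lower by at least that much. None of the factors was higher by 1.2-fold, against 3.22% of all transcripts. The signal of 42 factors lay within 10% of vehicle, against 76% of all transcripts, and of 32 within 5%, against 47.1%. The factors were also more abundant than most transcripts, with a median mean signal of 1602 normalized counts against 397, and the middle of the ratios was narrower at high signal. Their quartiles were -0.11 and 0.15 over transcripts with means below 100 and -0.04 and 0.07 above 3000. At 1.1-fold, EIF5 and EIF2S3 were lower and no factor was higher, against 11.6% and 14.1% of all transcripts. At 1.5-fold there was no factor in either direction, against 0.754% and 0.12%. Weighted to the factors' classes of signal, the shares of all transcripts were 85.4% within 10% and 56.4% within 5%. Past 1.2-fold the weighted shares were 2.51% lower and 0.915% higher.

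More factors were below vehicle than above it with PF8503. The median log2 ratio was -0.02 (range -0.29 to 0.12), against 0.01 over all transcripts. Of the 44, 29 (65.9%) were below vehicle, against 45.3% of all transcripts and 44.8% in the same classes of signal.

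EIF5, the GTPase-activating protein of eIF2 (ENSG00000100664, chr14:103333544-103345025, 12 exons, 431 residues), had a mean of 2353 normalized counts with vehicle and 1919 with PF8503. The mean was 18.5% lower with PF8503, a log2 ratio of -0.29. EIF5 ranked 286 from the lowest of 9157 transcripts. Among transcripts with means between 1000 and 3000, the central 95% ran from -0.22 to 0.18, and EIF5 was the 1 factor outside the central range of its own class, as were 5.05% of all transcripts. That standing depends on the class, since above 3000 the central 95% ran from -0.31 to 0.18. With PF846, the means of EIF5 were 2154 with vehicle and 2026 with compound, 5.95% lower (log2 ratio -0.09).

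All 6 factors grouped with eIF1, eIF1A, eIF5 and eIF5B, EIF1AD among them by its name alone, were below vehicle with PF8503, as were 45.3% of all transcripts, and their median log2 ratio was -0.07. Next to EIF5, EIF1AX was the lowest, at 1574 normalized counts with vehicle and 1445 with PF8503 (-0.12). EIF1AD was at -0.08, EIF5B at -0.05, and EIF1B and EIF1 at -0.04. With PF846 the median of these 6 was -0.04, and 4 of them were below vehicle, against 49.7% of all transcripts. EIF1AX had the lowest ratio of all factors with PF846, at 1441 with vehicle and 1327 with compound (-0.12).

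Among the eIF2 subunits, EIF2S3 had the second-lowest ratio of the 44 with PF8503, at 1712 normalized counts with vehicle and 1503 with compound (log2 ratio -0.19). EIF2S2 went from 4615 with vehicle to 4235 (-0.12), and EIF2S1 stayed at 2097 and 2119 (0.01). The order of the subunits was the same with PF846, with EIF2S3 at 1567 and 1450 (-0.11), EIF2S2 at 4224 and 4091 (-0.05) and EIF2S1 at 1920 and 1975 (0.04). The vehicle libraries are the same in both comparisons, so these orders are not independent of each other. EIF2A (-0.04) and EIF2D (-0.07) were below vehicle with PF8503, and at 0.03 and -0.04 with PF846.

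The exchange factor eIF2B showed no common direction. With PF8503, EIF2B3 was the third-lowest of all factors, at 726 normalized counts with vehicle and 665 with compound (log2 ratio -0.13), while EIF2B2 was at 0.05 and the median of the 5 subunits at -0.01. With PF846, EIF2B4 (670 with vehicle and 707 with compound, 0.08) and EIF2B1 (1317 and 1373, 0.06) had the second- and third-highest ratios of the factors, and the median was 0.01. The kinases also differed in direction. EIF2AK4 had the highest ratio of all factors with PF8503, at 324 with vehicle and 352 with compound (0.12), EIF2AK2 was at -0.08 and EIF2AK1 at -0.01. With PF846 these 3 kinases lay between -0.04 and 0.03.

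The 11 eIF3 subunits were centred on vehicle. Their median log2 ratio was -0.01 with PF8503, with 6 of 11 below vehicle against 45.3% of all transcripts, and 0.01 with PF846, with 4 of 11 below against 49.7%. With PF8503 the subunits ranged from EIF3K, at 2316 normalized counts with vehicle and 2142 with compound (-0.11), to EIF3B, a platform for the small subunit, at 8480 and 8820 (0.06). EIF3M, which like EIF3K belongs to the octameric core, was at -0.11. EIF3H (-0.07) and EIF3J (-0.07), a loosely bound subunit, were below vehicle with PF8503, and both had the lowest eIF3 values with PF846 (-0.07 and -0.06). EIF3A, EIF3D, EIF3F, EIF3G, EIF3I and EIF3L lay between -0.02 and 0.03 with either compound.

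The cap-binding complex and its partners scattered around vehicle. With PF8503, EIF4G1 was at 0.06, EIF4G2 at 0.00 and EIF4G3 at -0.07, while EIF4E was at -0.06. EIF4E2 had the second-highest ratio of all factors, at 622 normalized counts with vehicle and 659 with compound (0.08). EIF4A2, EIF4A3, EIF4B and EIF4H lay between -0.04 and 0.02. With PF846, EIF4H had the highest ratio of the 44, at 2876 with vehicle and 3111 with compound (0.11), and the others of its group lay between -0.04 and 0.01. The 3 eIF4E-binding proteins ranged from -0.01 to 0.05 with PF8503 and from -0.05 to 0.01 with PF846. EIF6 was at 0.05 with PF8503 and 0.00 with PF846. EIF5A2, the factor with the lowest mean signal, was at 159 with vehicle and 147 with PF8503 (-0.12) and at 0.04 with PF846.

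With PF846, none of the 44 factors was lower or higher than vehicle by 1.2-fold, against 1.9% and 1.43% of all 8839 transcripts. In the same classes of signal these shares were 0.892% and 0.535%. Nor was any factor past 1.1-fold, which 8.27% and 7.41% of all transcripts were, or past 1.5-fold, which 0.328% and 0.0113% were. All 44 lay within 10% of vehicle, against 85.7% of all transcripts and 94.0% in the same classes of signal. The 38 factors within 5% compare with 59.8% of all transcripts and 73.8% in the same classes of signal. The median log2 ratio was 0.00, as it was over all transcripts, with a range from -0.12 to 0.11. Below vehicle were 21 factors, against 49.7% of all transcripts. No factor lay outside the central 95% of its class of signal, against 5.05% of all transcripts, a share that the range sets by definition.

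**Figure D2:**
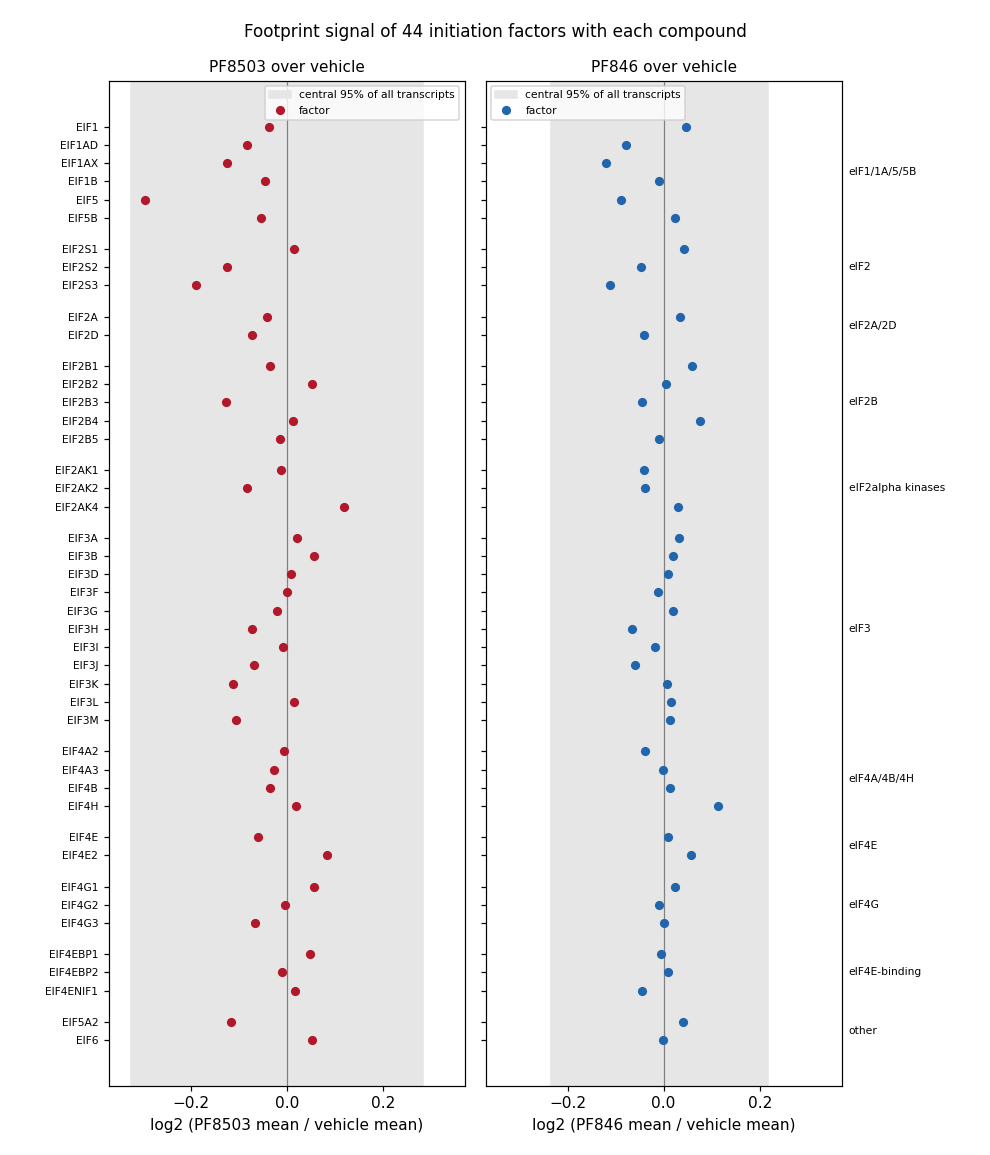
log2 ratio of the authors' mean with PF8503 (left, red) or PF846 (right, blue) over the vehicle mean, 1 point for each of the 44 factors, by group. Grey bands hold the central 95% of all transcripts (-0.32 to 0.28 and -0.23 to 0.22). All points lie inside the bands, and EIF5 with PF8503 (-0.29) lies nearest to an edge. The bands hold transcripts of any signal. EIF5 with PF8503 lay below the central 95% of its own class of signal (-0.22 to 0.18), and 5.05% of all transcripts lay outside theirs.

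**Figure D3:**
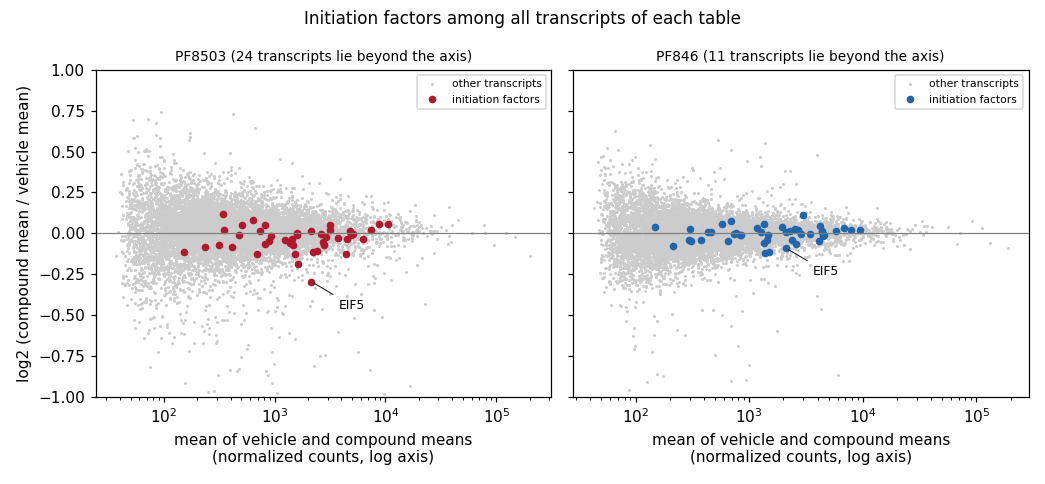
log2 ratio of the compound mean over the vehicle mean (vertical axis, shown from -1 to 1) against the mean signal (normalized counts, log axis) for all transcripts (grey) and the 44 factors (coloured), with PF8503 on the left and PF846 on the right. The middle of the ratios of all transcripts is wider at low signal, and EIF5 with PF8503 is the lowest of the factors.

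The compounds were given at the same dose and for the same time, so the factors could be set against each other directly. The mean with PF8503 was divided by the mean with PF846, after removal of the constant ratio between the vehicle means. Compared were the 8641 transcripts, of 8775 listed for both compounds, whose vehicle means stood at that ratio. The median of the 44 log2 ratios was -0.02 (range -0.21 to 0.09), against 0.01 over these 8641 transcripts. For 30 factors (68.2%) the signal was lower with PF8503 than with PF846, against 45.7% of the transcripts compared. No factor differed by 1.2-fold between the compounds, against 2.27% of the transcripts compared lower and 2.36% higher with PF8503. With no replicate values, no interval of these differences could be given.

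EIF5 differed most between the compounds, at 1.15-fold lower with PF8503 (log2 ratio -0.21), at percentile 4.21 of the transcripts compared. EIF5A2 (-0.16), EIF3M (-0.12) and EIF3K (-0.12) followed. EIF3M and EIF3K, both octamer subunits, were at 0.01 against vehicle with PF846. The other listed octamer subunits did not share this difference between the compounds. EIF3A was at -0.01, EIF3F at 0.01, EIF3H at -0.01 and EIF3L at 0.00. EIF4H was at -0.09, and it was near vehicle with PF8503 and above it with PF846. At the other end were EIF2AK4 (0.09), EIF4ENIF1 (0.06), EIF6 (0.05) and EIF4EBP1 (0.05). All 6 factors grouped with eIF1, eIF1A, eIF5 and eIF5B and all 3 eIF2 subunits were lower with PF8503 than with PF846. The log2 ratios of these factors lay between 0.00 and -0.21. Also lower were EIF2A and EIF2D, 4 of 5 eIF2B subunits and 7 of 11 eIF3 subunits, as were 30 of all 44 factors. Of the 8641 transcripts compared, 45.7% were lower. EIF1AX and EIF1AD (each at 0.00) had nearly the same signal with both compounds and were below vehicle with each. EIF2S3, also below vehicle with each, was at -0.08.

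**Figure D4:**
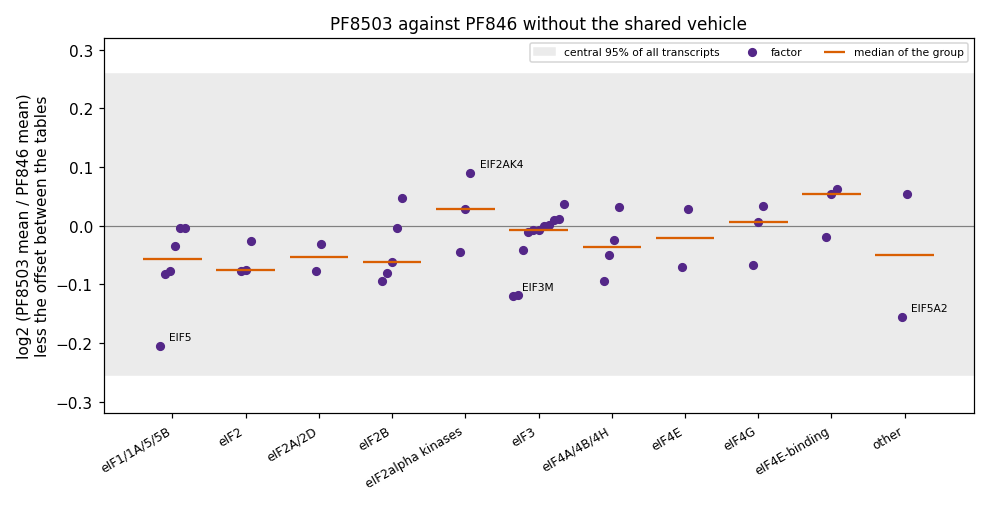
log2 ratio of the authors' mean with PF8503 over that with PF846, less the constant offset between the comparisons, 1 point for each of the 44 factors, by group. Orange lines are group medians, and the grey band holds the central 95% of the 8641 transcripts compared (-0.25 to 0.26). All factors lie inside the band, from EIF5 (-0.21) to EIF2AK4 (0.09).

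Of 36 other genes of the initiation pathway (poly(A)-binding proteins and their partners, helicases and recycling factors, the mTOR kinase and its regulators, eIF2 alpha phosphatase subunits and methionine aminopeptidases), all had a value with PF8503 and 35 with PF846. The median log2 ratio was 0.00 with PF8503, with 19 genes below vehicle against 45.3% of all transcripts, and 0.02 with PF846, with 13 below against 49.7%. TSC1, a subunit of the complex that restrains mTOR, was the 1 gene beyond 1.2-fold, at 141 normalized counts with vehicle and 113 with PF8503, 19.7% lower (log2 ratio -0.32). The central 95% of transcripts with means between 100 and 300 ran from -0.35 to 0.30. With PF846 it was at 129 with vehicle and 135 with compound (0.07). None of the 36 was higher by 1.2-fold with PF8503. Of all transcripts, 3.83% were lower and 3.22% higher by that much. None of the 35 passed 1.2-fold in either direction with PF846, against 1.9% of all transcripts lower and 1.43% higher.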

How the data were processed

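Ribosome footprints from 9 libraries were processed by the authors, who removed ribosomal RNA reads, used Bowtie to map the remainder onto coding sequences of UCSC canonical transcripts (GRCh38, GENCODE version 24) and kept reads with a single position. They counted from codon 10, or beyond DMax (the position where cumulative compound and vehicle reads diverge most) where its Z score reached 2, and left out the last 10 codons, for transcripts with over 30 counts. The deposited signal values are the authors' means per condition of counts normalized with DESeq. The deposited ratio, log2 and p-value columns hold the authors' comparisons of these means and were not used. Tool versions are not given in the sources used here, and the tables do not give the depth per library. The reads themselves were not used here.

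Computed here were ratios of means, their log2, counts past 1.2-fold, the direct ratio of the compounds and the vehicle mean per 100 counted codons, with no test. Shares in classes of signal used means with edges at 100, 300, 1000 and 3000. Coding lengths, start codons and unique 28-base windows came from GENCODE version 44 on GRCh38, and 9176 of 9221 symbols (99.5%) matched. The authors' transcript of a gene may differ from the one used. The ratio and counted-region steps were tried on simulated means with counting noise only and changes larger than 1.2-fold. Smaller changes, classes of signal, levels per codon, unique windows and start codons were not covered. Every factor could be named, with fuller values for those past 1.2-fold, the 3 lowest and 3 highest ratios per compound and the extremes per length of each complex. Other pathway genes were named only past 1.2-fold. The members, lists and groups were chosen with earlier results of these data known. The alternatives tried were a pseudocount of 1, centring on the median, a minimum mean of 100, other folds and members, full lengths and unique windows. Scripts ran in Python 3.11.15 with matplotlib 3.10.9, pandas 2.3.3 and numpy 2.4.6.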

Additional observations from a re-analysis of the deposited data

How the results depend on the processing

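Of 36 alternative settings, 33 left the result within 0.05 on the log2 scale for a median or within 1.5 times for a count or a range. The medians themselves were smaller than 0.05, such as -0.02 for the factors with PF8503, so even a change of sign would pass. No factor had a mean below 100 or another counted region, so leaving such factors out could not change a result. The tally therefore says little about how firm the medians are. The number of factors past 1.2-fold with PF8503 was 1 (EIF5), and it was 2 at 1.1-fold (EIF5 and EIF2S3, both lower) and 0 at 1.5-fold. The ratio of the highest to the lowest eIF2 subunit per codon was 2.07 with unique windows instead of 3.89, where EIF2S3 rises to 1054 normalized counts per 100 codons and EIF2S1 becomes the lowest. No paired analysis was possible because the values are means per condition, and for the same reason no replicate could be left out in turn. The error between libraries was not estimated here, since the means do not carry it and the authors' p-values were not used, so a median of -0.02 over the factors cannot be set against any error.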
